A study of Mus musculus with 18 samples.

Results

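Cyclic AMP and meiotic arrest genes were followed through 18 mouse oocyte libraries. They were 10 of the 28252 genes with a TPM value (a level scaled for gene length and for the library's total), found by the symbols *Gpr3*, *Gnas*, *Rgs2*, *Adcy3*, *Pde3a*, *Prkaca*, *Prkar1a*, *Prkar2b*, *Pkia* and *Npr2*, and their read counts were taken by the same gene identifiers. All 10 were found once. The libraries came from F1 (C57Bl/6j x CBA/J) mice and formed 6 groups of 3, with primordial follicle, primary follicle and metaphase II (MII) oocytes each grown *in vivo* or *in vitro*. The *in vivo* primordial and primary oocytes were cut by laser from sections of fixed, paraffin-embedded, uncultured ovaries of 14-day-old mice, and their *in vitro* counterparts from ovaries of 7-day-old mice cultured for 7 days in medium with serum, insulin-transferrin-selenium and recombinant FSH. The *in vivo* MII oocytes came from adult females superovulated with HMG followed by hCG, and the *in vitro* MII oocytes from follicles of cultured ovaries that were held in alginate for 12 more days and then given hCG. Ages of the animals and of the cultures thus differ together with growth, and the RNA of each library was a pool of oocytes.

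In the fully grown oocyte of the antral follicle, meiosis is held in prophase by cyclic AMP that the oocyte makes itself, whereas oocytes of primordial and primary follicles are not yet competent to resume meiosis. The orphan receptor GPR3 acts through the stimulatory G protein subunit encoded by *Gnas* on adenylyl cyclase, of which ADCY3 is the principal form in the rodent oocyte, and cyclic AMP keeps protein kinase A active by releasing its catalytic subunits from its regulatory subunits. PDE3A breaks cyclic AMP down, and it is held in check by cyclic GMP that the granulosa cells make through the receptor NPR2 and pass through gap junctions, until luteinizing hormone lowers cyclic GMP and meiosis resumes.

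The 250 bases before the start of *Gpr3*, *Rgs2* and *Npr2* are shown because *Gpr3* and *Rgs2* were the 2 of the 10 genes that stood higher in every MII library than in any microdissected library, and *Npr2* the 1 with no read in any MII library. Of all genes with at least 10 reads, 20.2% stood higher in this way. No MII read was found for 7.04% of genes that reached 1000 reads in a microdissected library. The 2 kinds of library were made by different methods. The sequences shown are taken from RefSeq on GRCm38.p6, run 5′ to 3′ on the strand of the gene, and cover chr4:133212537-133212786 (minus strand), chr1:144004150-144004399 (minus strand) and chr4:43631685-43631934 (plus strand). Capitals mark the core of the cyclic AMP response element, TGACG, on either strand (CGTCA on the other).
Gpr3: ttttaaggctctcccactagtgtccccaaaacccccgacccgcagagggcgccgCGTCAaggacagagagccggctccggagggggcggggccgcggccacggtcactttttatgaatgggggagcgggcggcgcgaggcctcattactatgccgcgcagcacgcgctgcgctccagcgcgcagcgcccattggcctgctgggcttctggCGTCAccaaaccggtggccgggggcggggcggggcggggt
Rgs2: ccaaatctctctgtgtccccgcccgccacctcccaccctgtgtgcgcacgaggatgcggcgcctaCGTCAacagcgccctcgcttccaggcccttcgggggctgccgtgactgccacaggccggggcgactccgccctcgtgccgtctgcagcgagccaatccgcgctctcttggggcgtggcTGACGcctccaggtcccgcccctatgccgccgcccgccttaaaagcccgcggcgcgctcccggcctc
Npr2: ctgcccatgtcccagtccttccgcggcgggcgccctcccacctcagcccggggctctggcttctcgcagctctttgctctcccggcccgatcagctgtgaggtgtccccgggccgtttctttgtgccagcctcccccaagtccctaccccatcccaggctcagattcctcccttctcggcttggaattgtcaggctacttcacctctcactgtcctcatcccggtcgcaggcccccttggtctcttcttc
The *Gpr3* window held the core 196 and 40 bases before the start, the *Rgs2* window 185 and 67 bases before it, and the *Npr2* window held none. Of all 32851 windows of this length, 17.8% held the core and 1.55% the full element TGACGTCA. RefSeq windows were given for 8 of the 10 genes, and 5 of these 8 genes (*Gpr3*, *Rgs2*, *Gnas*, *Prkaca* and *Prkar1a*) had at least 1 window with the core, against 19.8% of all genes with a window. The 8 genes had 19 windows, whereas all 27025 genes with a window had 32851. With more windows per gene, at least 1 with the core is easier to find, so the 2 shares are not alike. *Gnas*, *Prkaca* and *Prkar1a* have several windows each, some of which overlap for *Gnas* and *Prkar1a*, and 1 window of *Prkar1a* held the full element. These matches describe the letters alone.

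The microdissected libraries held 15149564 to 29205503 counted reads and the MII libraries 7334817 to 9978830, and 3 reads, taken as the floor of detection, correspond to 0.103 to 0.198 and 0.301 to 0.409 CPM (reads scaled to the library's total). Microdissected RNA was amplified by the Ovation PICO kit before capture with TruSeq RNA Access, whereas MII RNA went through Smart-seq II, so stage and library method cannot be told apart and values of the 2 kinds of library are set side by side without a test. In such bulk samples fewer cells of a type and less RNA per cell cannot be told apart either. The fixed list of 15 oocyte markers was over the floor for 12 to 15 genes in every microdissected library and for 13 or 14 in every MII library, with summed levels of 332 to 2013 TPM and 10593 to 21358 TPM. Markers of other cells were also present in the microdissected libraries. The 12 granulosa markers summed to 22.8 to 2154 TPM there against 30.3 to 76.5 TPM in MII libraries, and the 8 markers of theca and stroma to 453 to 11415 TPM against 1.30 to 5.02 TPM, with *Fshr* at 0 in all 12 microdissected libraries and *Foxl2*, *Amhr2* and *Nr5a1* at 0 in all 6 MII libraries. *Cyp19a1* carried most of the MII sum, at 17.5 to 64.7 TPM there against at most 0.193 TPM in microdissected libraries, and *Nr5a2* and *Kitl* were over the floor in all 6 MII libraries as well. Of the 12 granulosa markers, 3 to 4 were over the floor in *in vivo* MII libraries and 5 to 7 in *in vitro* ones, with overlapping sums. The 4 of 6 cumulus markers with a TPM value summed to at most 2.32 TPM in any library, the 3 immune markers to at most 12.4 TPM and the 3 endothelial markers to at most 97.5 TPM.

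*Rgs2* led the genes in MII oocytes, followed by *Gpr3*. RGS2 speeds the switching off of Gq-type G proteins. Its level was 633, 1346 and 1239.7 TPM in the *in vivo* MII libraries and 973, 1386 and 1337 TPM in the *in vitro* ones. *Gpr3* came next in both groups, at 169.8 ± 50.4 TPM (SD, n = 3) *in vivo* and 112.6 ± 22.4 TPM *in vitro*. In the *in vivo* group the ranges of *Rgs2*, *Gpr3* and the next gene, *Prkar1a* (69.8 ± 2.93 TPM), did not overlap. The range of *Prkaca* (69.3 ± 23.6 TPM) overlapped those of *Prkar1a*, *Pde3a* (46.2 ± 14.8 TPM) and *Prkar2b* (43.1 ± 14.8 TPM). *Pde3a* and *Prkar2b* overlapped each other, at up to 60.4 and 59.3 TPM, and both lay below *Prkar1a*, at 66.4 to 71.6 TPM. *Gnas* at 16.7 ± 8.92 TPM and *Adcy3* at 1.48 ± 0.27 TPM followed, each below the range of the gene before it. *Pkia* and *Npr2* were not detected in any *in vivo* MII library. The order was the same *in vitro* for *Rgs2* and *Gpr3* and from *Gnas* downwards, but there *Prkaca* (34.0 ± 4.09 TPM) stood after *Prkar1a* (93.3 ± 30.0 TPM), *Pde3a* (43.2 ± 7.05 TPM) and *Prkar2b* (34.7 ± 6.45 TPM), and its range overlapped that of *Prkar2b*, while the ranges of *Gpr3* and *Prkar1a* now overlapped.

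**Figure D1:**
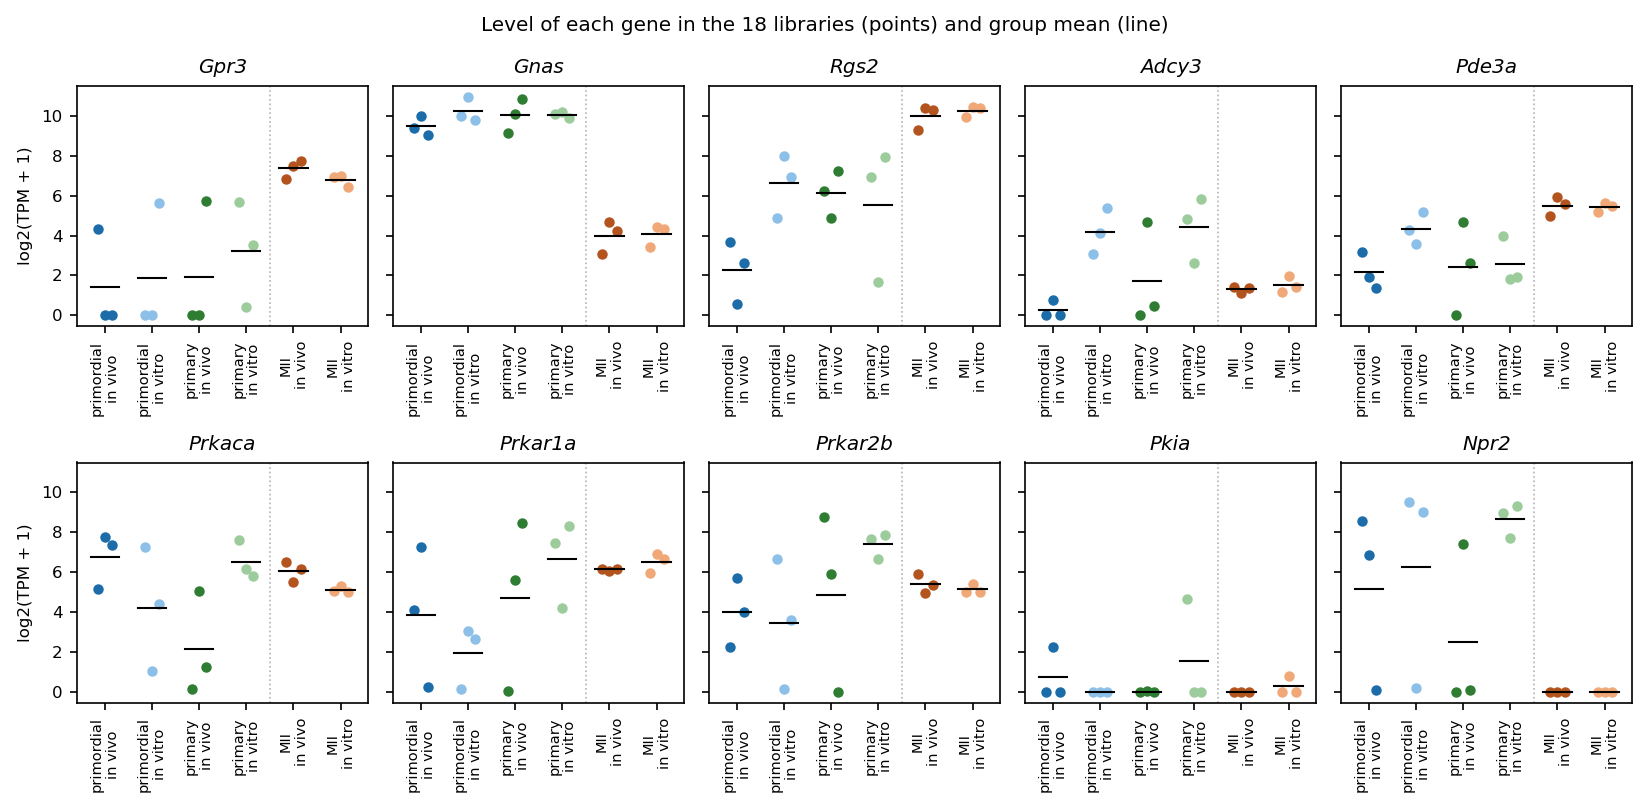
Level of each of the 10 genes as log2(TPM + 1) (vertical axis) in the 6 groups (horizontal axis), with a point for each library and a line for the group mean. The dotted line separates the microdissected from the MII libraries, which were made by different methods. *Gnas* lay between 533 and 1983 TPM in the 12 microdissected libraries, while most of the other genes ranged from 0 or near 0 to high values within a group.

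To ask whether growth *in vitro* changed these genes in MII oocytes, the 3 *in vitro* libraries were compared with the 3 *in vivo* libraries by the quasi-likelihood test of edgeR, with p-values adjusted over 17144 genes after Benjamini and Hochberg, and a gene was called at an adjusted p under 0.05 and a fold of at least 2. None of the 9 genes tested was called, and DESeq2 called none either. An unadjusted p under 0.05 was found for 1 of the 9, beside 10.2% of all genes. Over all genes 60, or 0.35%, were called, so that 0 of 9 is no departure from the background. Fold changes below are on the log2 scale, *in vitro* over *in vivo*, with the standard error (SE) and the 95% confidence interval.

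*Prkaca*, which encodes the principal catalytic subunit of protein kinase A, had the lowest unadjusted p of the 9. It stood at 91.6, 44.6 and 71.6 TPM *in vivo* and at 31.8, 38.7 and 31.4 TPM *in vitro*, so that every *in vitro* library lay below every *in vivo* library. The log2 fold change was -0.999 (SE 0.40, interval -1.86 to -0.14, adjusted p = 0.439 by edgeR), which does not pass the threshold. Its normalized CPM ranges were apart too, as they were for 16.2% of all genes tested.

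The receptor, the G protein and the cyclase upstream of the kinase did not pass the test. *Gpr3* had 114.8, 181.0 and 213.6 TPM *in vivo* and 123.4, 127.6 and 86.9 TPM *in vitro*, with overlapping groups and a log2 fold change of -0.48 (SE 0.35, interval -1.22 to 0.26, adjusted p = 0.643 by edgeR). *Gnas* had 7.35, 25.1 and 17.6 TPM *in vivo* and 9.73, 20.8 and 19.2 TPM *in vitro*, and its log2 fold change of 0.04 (SE 0.41, interval -0.84 to 0.91, adjusted p = 0.988 by edgeR) has an interval within 2-fold in either direction. *Adcy3* was the lowest of the detected genes, at 22 to 63 reads per MII library, and its interval of -1.27 to 1.99 is accordingly wide.

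*Pde3a*, the phosphodiesterase that ends the arrest, had overlapping groups. Its values were 30.9, 60.4 and 47.3 TPM *in vivo* and 35.6, 49.5 and 44.4 TPM *in vitro*. The log2 fold change was -0.03 (SE 0.32, interval -0.71 to 0.65, adjusted p = 0.988 by edgeR). *Rgs2* differed by a log2 fold change of 0.27 (SE 0.34, interval -0.46 to 1.00, adjusted p = 0.843 by edgeR), with overlapping groups. Of the regulatory subunits, *Prkar1a* stood at 71.6, 66.4 and 71.4 TPM *in vivo* and at 61.0, 120.3 and 98.7 TPM *in vitro* (log2 fold change 0.42, SE 0.31, interval -0.25 to 1.10, adjusted p = 0.657 by edgeR), and *Prkar2b* had an interval of -1.14 to 0.54.

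*Pkia*, which encodes a peptide that blocks the catalytic subunit, had 10 reads in *in vitro* MII library 2 and 0 in the other 5. *Npr2* had no read in any of the 6 MII libraries, which allows at most 0.301 to 0.409 CPM per library, and was therefore not tested. Among 7588 genes that reached 1000 reads in some microdissected library, 7.04% likewise had no read in any MII library.

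**Figure D2:**
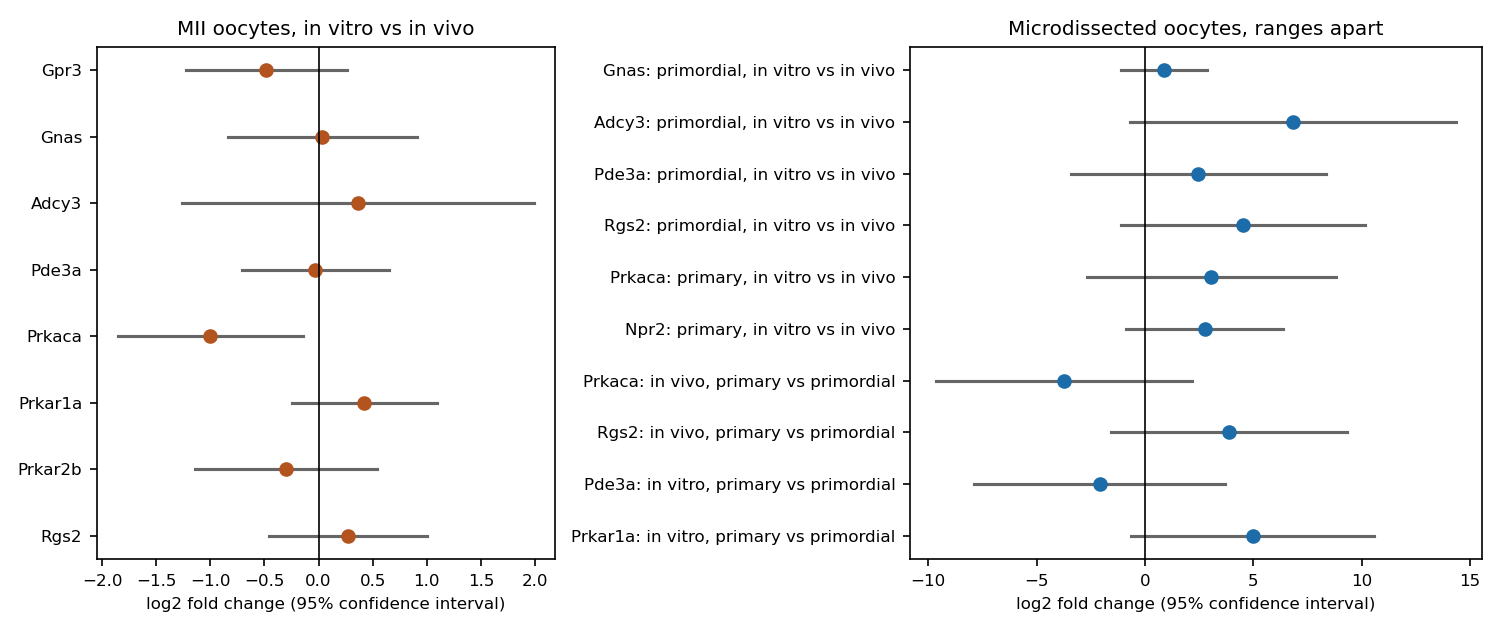
Log2 fold changes (points) with 95% confidence intervals (lines) from edgeR, for MII oocytes *in vitro* against *in vivo* (left) and for the 10 pairs of gene and comparison among microdissected oocytes whose groups did not overlap (right). On the left the interval of *Prkaca*, -1.86 to -0.14, is the only one that does not include 0, and on the right all intervals include 0; the axes differ in scale.

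Protein kinase A is a tetramer of regulatory and catalytic subunits, and the summed levels of their genes were compared per library. In MII oocytes *Prkaca* made up 89.1% to 97.9% of the catalytic TPM, the rest being *Prkacb*, and *Prkar2a*, which was not among the 10 genes, made up 39.8% to 63.7% of the regulatory TPM. The ratio of regulatory to catalytic TPM was 2.47, 5.32 and 4.19 *in vivo* and 6.14, 6.67 and 7.75 *in vitro*. The groups did not overlap, with means of 3.99 ± 1.43 and 6.86 ± 0.82 (SD, n = 3 each, exact two-sided permutation p = 0.1, the smallest that 3 against 3 allows, and 0.25 after Benjamini-Hochberg adjustment over 5 such measures). The summed catalytic level was 72.6 ± 25.01 TPM *in vivo* and 36.6 ± 3.58 TPM *in vitro* (exact permutation p = 0.1, adjusted 0.25). The summed regulatory level was 266 ± 35.2 and 251 ± 37.3 TPM (exact permutation p = 0.6), with overlapping groups, and the share of *Prkar1a* in it was 26.5% ± 3.22 and 36.6% ± 7.52 (exact permutation p = 0.2, adjusted 0.333). The remaining measure, the share of *Prkaca* in the catalytic level, was 95.5% ± 2.12 *in vivo* and 92.8% ± 3.27 *in vitro* (exact permutation p = 0.4, adjusted 0.5). These measures were chosen with the value of *Prkaca* known and do not add to it independently.

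**Figure D3:**
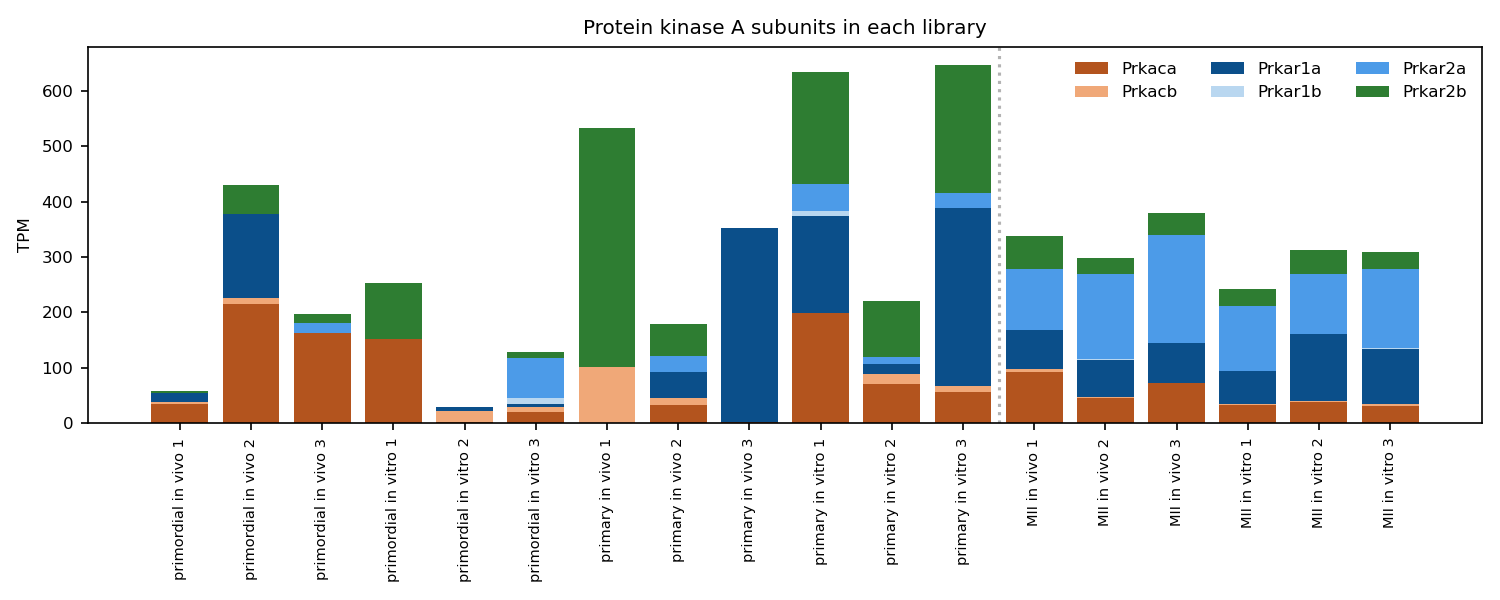
Level (TPM, vertical axis) of the genes of 2 catalytic subunits (orange shades) and 4 regulatory subunits (blue and green) of protein kinase A, stacked for each library (horizontal axis), with microdissected libraries left and MII libraries right of the dotted line. In all 6 MII libraries *Prkar1a*, *Prkar2a* and *Prkar2b* were all present, while *Prkar2b* alone was 99.99% of the regulatory level in primary *in vivo* library 1 and *Prkar1a* 99.95% in primary *in vivo* library 3.

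In microdissected oocytes the same subunits varied from library to library. The ratio of regulatory to catalytic TPM ran from 0.21 in primordial *in vivo* library 3 to 250.1 in primary *in vivo* library 3. *Prkaca* had 598, 3782 and 2968 reads in the primordial *in vivo* libraries and 1773, 22 and 324 in the primordial *in vitro* libraries. In primary oocytes it had 2, 577 and 17 reads *in vivo* and 3400, 1326 and 1106 *in vitro*, and here the groups did not overlap.

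Such jumps within a group were seen for most of the 10 genes in microdissected libraries, though no more often than over all genes tested. *Gnas* and *Rgs2* were over the floor in all 12 of them, as were 12.2% of all genes tested, *Pde3a* and *Prkaca* in 11, *Prkar1a* and *Prkar2b* in 10, *Adcy3* and *Npr2* in 9, *Gpr3* in 6 and *Pkia* in 2. Of 37 pairs of a gene and a group with at least 100 reads in 1 library, 14 (37.8%) had 3 reads or fewer in another library of that group, against 45.5% over all genes tested. In MII oocytes 8 of the 10 genes were over the floor in all 6 libraries, as were 60.6% of all genes tested there.

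The microdissected groups were tested in 1 fit of the 12 libraries over 15317 genes, with 7 comparisons. None of the 10 genes was called in any of them. Over all genes edgeR called 5 (0.0326%) between primordial oocytes *in vitro* and *in vivo*, 0 (0%) between primary oocytes *in vitro* and *in vivo*, 8 (0.0522%) between primary and primordial oocytes *in vivo*, 0 (0%) between them *in vitro*, 16 (0.104%) for the interaction of growth and stage, and 0 (0%) for growth pooled over stage and for stage pooled over growth. With RLE scaling these pooled counts were 17 and 24, with TMMwsp scaling 7 and 0, and without robust estimation 19 and 22. At an unadjusted p under 0.05 there was 1 of the 10 genes in 4 of the 7 comparisons, and it was *Pkia* each time, against 9.66% to 12.4% of all genes. *Pkia* had 100 reads in primordial *in vivo* library 2, 633 in primary *in vitro* library 1, 1 in primary *in vivo* library 2 and 0 in the other 9 microdissected libraries, so its values rest on 1 library in each group.

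Ovary culture was compared first in primordial oocytes. In normalized CPM the 2 groups lay apart for 4 of the 10 genes, *Gnas*, *Adcy3*, *Pde3a* and *Rgs2*, all higher *in vitro*, where 6.59% of all genes tested had groups apart in either direction. *Adcy3* had 0, 30 and 0 reads *in vivo* and 216, 885 and 1664 *in vitro*. Its log2 fold change was 6.83 (SE 3.84, interval -0.70 to 14.4, adjusted p = 0.454 by edgeR), and DESeq2 with its defaults called it (log2 fold change 7.06, adjusted p = 0.0356), as it did 812 genes or 5.3% of those in the fit. Leaving out each library of these groups in turn gave log2 fold changes of 6.01 to 12.9 (adjusted p 0.510 to 0.650 by edgeR). The highest was without primordial *in vivo* library 2, the only one of its group with *Adcy3* reads. *Pde3a*, which breaks down what ADCY3 makes, had 715, 246 and 151 reads *in vivo* and 1119, 1167 and 2865 *in vitro* (log2 fold change 2.46, interval -3.43 to 8.35, adjusted p = 0.828 by edgeR).

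*Rgs2* had 290, 13 and 136 reads in the primordial *in vivo* libraries and 495, 7738 and 2890 *in vitro* (log2 fold change 4.53, SE 2.87, interval -1.10 to 10.2, adjusted p = 0.481 by edgeR). *Gnas* was the steadiest of the 10, at 680, 1035 and 533 TPM *in vivo* and 1013, 1983 and 900.1 TPM *in vitro*, ranges that overlapped in TPM but not in normalized CPM (log2 fold change 0.89, SE 1.02, interval -1.11 to 2.88, adjusted p = 0.810 by edgeR). The stromal markers, which moved over a wide range in both groups (538 to 1701 TPM *in vivo* and 460 to 3481 TPM *in vitro*), and the granulosa markers (24.2 to 625 TPM and 22.8 to 1063 TPM) overlapped between these groups, and their part in the values was not tested.

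In primary oocytes the groups were apart for *Prkaca* and *Npr2* only, 2 of 10 genes, with 9.99% of all genes tested apart. *Prkaca* had a log2 fold change of 3.06 (SE 2.93, interval -2.68 to 8.80, adjusted p = 0.847 by edgeR) and *Npr2* of 2.75 (SE 1.85, interval -0.87 to 6.38, adjusted p = 0.635 by edgeR), both higher *in vitro*. Without primary *in vivo* library 2, which leaves 0 and 2 reads of *Npr2* and 2 and 17 of *Prkaca* in that group, the log2 fold change was 13.1 for *Npr2* and 7.004 for *Prkaca*, and neither passed (adjusted p 0.255 and 0.418 by edgeR). These were the highest values when leaving out each library in turn, and the lowest were 2.17 for *Npr2* and 2.48 for *Prkaca*. The other 8 genes overlapped. *Gpr3* had 0, 0 and 738 reads *in vivo* and 949, 7 and 234 *in vitro*, and *Adcy3* 0, 1141 and 12 reads *in vivo* and 1205, 241 and 2859 *in vitro*.

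Between primary and primordial oocytes *in vivo* the groups were apart for 2 of the 10 genes, with 6.39% of all genes tested apart. *Rgs2* was higher in primary oocytes, with 1896, 762 and 2819 reads (log2 fold change 3.88, SE 2.78, interval -1.58 to 9.34, adjusted p = 0.583 by edgeR). *Prkaca* was lower in them (log2 fold change -3.73, SE 3.02, interval -9.64 to 2.19, adjusted p = 0.652 by edgeR). Leaving out each library in turn gave -7.67 to -3.15 for *Prkaca*, the -7.67 without primary *in vivo* library 2 (adjusted p = 0.428 by edgeR). *In vitro* the groups were again apart for 2 genes, with 11.2% of all genes tested apart, but these were *Pde3a* and *Prkar1a*. *Pde3a* was lower in primary oocytes with 1295, 248 and 283 reads (log2 fold change -2.09, SE 2.96, adjusted p = 0.945 by edgeR). Leaving out each library in turn gave -3.17 (without primary *in vitro* library 1) to -1.60 for *Pde3a*. *Prkar1a* was higher with 5240, 571 and 11157 reads against 2, 272 and 145 (log2 fold change 4.97, SE 2.86, interval -0.63 to 10.6, adjusted p = 0.504 by edgeR). With growth pooled over stage, stage pooled over growth and their interaction, adjusted p-values of the 10 genes were at least 0.517, 0.524 and 0.225.

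Set beside each other without a test, MII and microdissected libraries did not overlap for the receptor, the G protein subunit and *Rgs2*. All 6 MII libraries lay above all 12 microdissected libraries for *Gpr3* (86.9 to 213.6 against 0 to 52.7 TPM) and *Rgs2* (633 to 1386 against 0.51 to 251 TPM), which was so for 20.2% of all genes with at least 10 reads. All 6 lay below all 12 for *Gnas* (7.35 to 25.1 against 533 to 1983 TPM), as for 1.72% of those genes. To lie below, a gene needs a level over 0 in all 12, and only 12.2% of genes tested there were over the floor in all 12. *Pde3a* was 30.9 to 60.4 TPM in MII and 0 to 34.9 TPM in microdissected libraries, ranges that met in primordial *in vitro* library 3. *Npr2* reached 737 TPM in primordial *in vitro* library 1 and had no read in MII oocytes. *Prkaca*, *Prkar1a* and *Prkar2b* in MII oocytes lay inside their microdissected ranges.

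Overlapping genes limit some of these levels, since the strand setting of the counting is not given in the sources used here. *Gpr3* (chr4:133209340-133212536, minus strand) shares 204 of its 2734 exon bases with *Cd164l2* on the other strand, which had 2275 to 4330 reads in MII libraries and 1 to 53 in microdissected ones. *Gnas* (chr2:174284320-174346744, plus strand) shares 988 exon bases with the antisense gene *Nespas*, at 18 to 77 reads in MII libraries, and 1469 with *Gm20721*, at 269 to 777 reads there against 292 to 838 for *Gnas* itself. *Adcy3* (chr12:4133103-4213525, plus strand) shares 1380 of 6246 exon bases with *Cenpo*, which had 672 to 1759 reads in MII libraries and 0 to 641 in microdissected ones. *Prkaca* (chr8:83972993-83996443, plus strand), *Rgs2* (chr1:143999338-144004161, minus strand), *Prkar1a* (chr11:109649405-109669656, plus strand) and *Prkar2b* (chr12:31958476-32061296, minus strand) overlap no other annotated gene. *Pde3a* (chr6:141249269-141507448, plus strand), *Npr2* (chr4:43631935-43651244, plus strand) and *Pkia* (chr3:7366669-7445366, plus strand) overlap only genes with at most 110 reads in any library.

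NPR2 is known as the granulosa cell receptor for C-type natriuretic peptide, and its gene was read together with granulosa markers. In primary oocytes *in vitro* *Npr2* had 16340, 7332 and 23927 reads and the 12 granulosa markers summed to 1013, 717 and 2154 TPM. In primary oocytes *in vivo* *Npr2* had 0, 5868 and 2 reads beside marker sums of 211, 534 and 416 TPM, so both measures were higher *in vitro* with groups apart. The marker list and *Npr2* did not keep step everywhere. Primordial *in vitro* library 1 had 16235 *Npr2* reads at the lowest marker sum, 22.8 TPM, and primordial *in vitro* library 2 had 5 reads at 412 TPM. The part of granulosa RNA in the *Npr2* values was not tested.

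**Figure D4:**
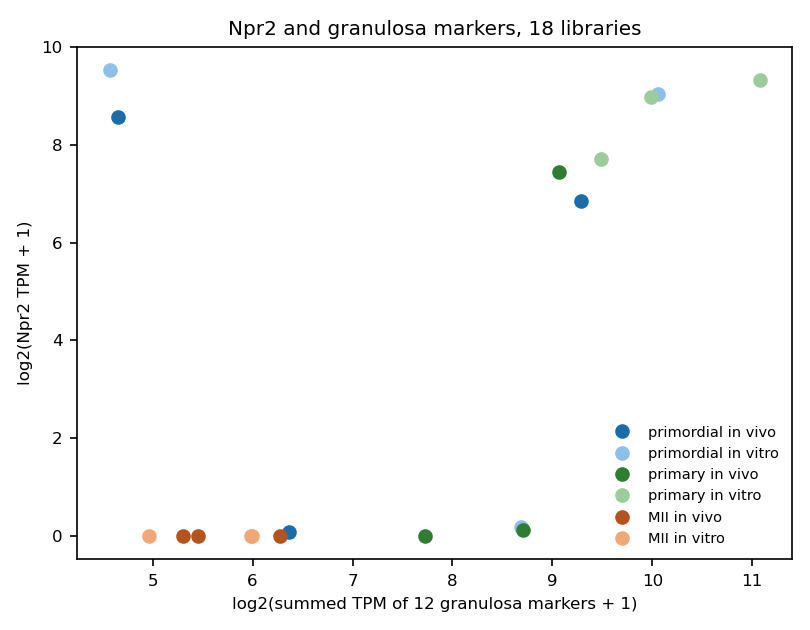
Level of *Npr2* (vertical axis) against the summed level of the 12 granulosa markers (horizontal axis), both as log2(TPM + 1), with a point for each of the 18 libraries colored by group. The 3 primary *in vitro* libraries lie at the upper right, at 208 to 638 TPM of *Npr2* and 717 to 2154 TPM of markers, and the 6 MII libraries lie on the line of 0 *Npr2*.

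The rest of the pathway was followed with 8 lists of other genes, of which 83 genes were tested in MII oocytes and 85 in microdissected oocytes. In MII oocytes 2 of the 83 were called, both higher *in vitro* and both in the list of adenylyl cyclases and their partners. Among all 17144 genes tested 60 (0.35%) were called, 49 of them higher and 11 lower *in vitro*. *Adcy2* (chr13:68620043-68999541, minus strand), a cyclase best known from neurons, had 0 reads in all 3 *in vivo* libraries and 95, 106 and 71 reads *in vitro*, which is at least 83.4-fold higher with 3 reads taken for the *in vivo* group as a whole (adjusted p = 0.0083 by edgeR). *Cap1* (chr4:122859047-122886056, minus strand), named as a cyclase-associated protein but known in mammals for actin turnover, had 0, 0 and 1 reads *in vivo* and 71, 84 and 48 *in vitro* (log2 fold change 7.15, SE 1.23, adjusted p = 0.0229 by edgeR). Without any 1 of the *in vitro* libraries neither gene passed (adjusted p 0.0758 to 0.106 for *Adcy2* and 0.120 to 0.200 for *Cap1*), and *Cap1* did not pass without *in vivo* library 3 either (adjusted p = 0.0900 by edgeR). In the 12 microdissected libraries *Cap1* was over the floor in 11, at up to 305 TPM, and *Adcy2* in 5, at up to 29.7 TPM. Granulosa markers over the floor numbered 3 to 4 in *in vivo* and 5 to 7 in *in vitro* MII libraries. The part of RNA from other cells in these values was not tested.

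The median log2 fold change in MII oocytes was 0.06 over 10 receptors and G proteins, 0.47 over 8 cyclases and partners, 0.04 over 18 phosphodiesterases, -0.22 over 5 other kinase subunits and inhibitors, -0.01 over 11 A-kinase anchoring proteins, 0.69 over 11 cyclic GMP and gap junction genes, -0.27 over 6 other RGS proteins and 0.02 over 14 maturation targets downstream of the kinase, beside 0.04 over all genes tested. At an unadjusted p under 0.05 there were 16 of the 83, 8 in each direction, beside 10.2% of all genes. In the 7 microdissected comparisons no list gene was called by edgeR with TMM normalization and robust estimation, and 7 to 12 of 85 had an unadjusted p under 0.05, beside 9.66% to 12.4% of all genes. *Prkg1*, a cyclic GMP-dependent kinase, passed in both pooled comparisons by edgeR with RLE scaling (adjusted p 0.0099 and 0.0097) and without robust estimation (adjusted p 0.0185 and 0.0150).

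The gene of each list with the highest median level in *in vivo* MII oocytes did not pass the test in MII oocytes in any list. *Gnb1*, a beta subunit of G proteins, had the lowest p of them, with 283, 162 and 189 TPM *in vivo* and 82.2, 80.4 and 80.0 TPM *in vitro* (log2 fold change -1.34, SE 0.37, interval -2.13 to -0.56, adjusted p = 0.205 by edgeR). *Adcy9* led the cyclases at a median of 35.2 TPM *in vivo*, against 1.56 TPM for *Adcy3*, and stood at 19.3 TPM *in vitro* (adjusted p = 0.504 by edgeR). *Prkar2a* had a median of 152.9 TPM *in vivo* and 115.7 TPM *in vitro*. *Rgs17* had 161.7 and 120.7 TPM, *Akap1*, a mitochondrial anchor of protein kinase A, 141.3 and 73.3 TPM, *Gja4*, the oocyte connexin of the gap junctions to granulosa cells, 69.1 and 124.8 TPM, and *Pde8a* 31.7 and 24.6 TPM. *Mos*, the kinase that starts the MAP kinase cascade of metaphase arrest, had 566 and 986 TPM.

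**Figure D5:**
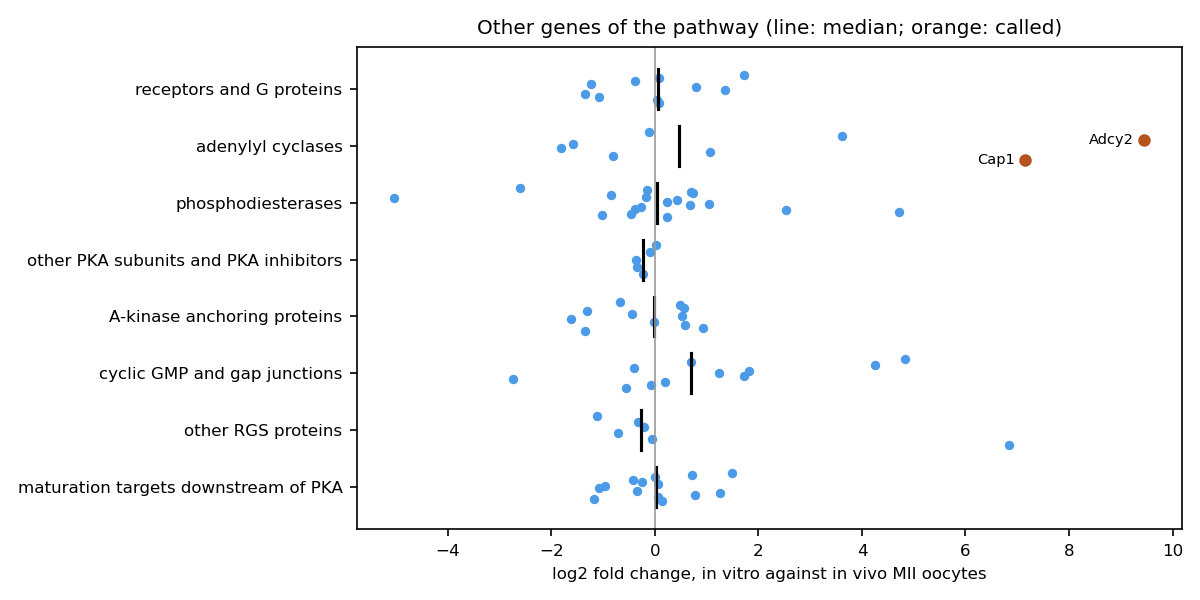
Log2 fold change in MII oocytes, *in vitro* against *in vivo* (horizontal axis), of each tested gene (point) in the 8 lists (vertical axis), with the median of each list as a line. The larger orange points are *Adcy2* and *Cap1*, the 2 genes that passed the test, and the medians lie between -0.27 and 0.69.

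Over all 18 libraries, among 9942 genes with a mean of at least 5 TPM, the log2(TPM + 1) values most like those of *Gpr3* by Pearson's r belonged to *Mospd1* (r = 0.931), *Slu7* (r = 0.913) and *Cks1b* (r = 0.912), and those most like *Pde3a* to *Htatsf1* (r = 0.888), *Gfer* (r = 0.887) and *Slc30a4* (r = 0.885). These 18 points share the step between library methods. Over the 12 microdissected libraries alone, with 7962 genes, the nearest to *Gpr3* were *Usp20* (r = 0.921), *Pygm* (r = 0.910) and *Mir6904* (r = 0.910), and the nearest to *Pde3a* were *Amotl1* (r = 0.876), *Gnl2* (r = 0.830) and *Hmgn1* (r = 0.815), so that no gene stood in both sets of 3. *Gpr3* and *Pde3a* themselves had r = 0.698 over 18 and 0.348 over 12 libraries. These values are descriptions over libraries that share dropouts and depth.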

How the data were processed

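The authors trimmed the reads with Trim Galore (0.4.1), aligned them to mm10 with TopHat2 and counted reads per gene with featureCounts, and the deposited files hold raw read counts for 53715 genes and the authors' TPM values for 28252 of them. Strand setting and multimapping were not given in the sources used here. Condition and replicate number were taken from the labels. Counts were tested with edgeR 4.0.16 (TMM normalization, robust quasi-likelihood fit) in R 4.3.3, on genes with at least 10 reads in total, with the 12 microdissected libraries in 1 fit and the 6 MII libraries in another, because the kits differed. The alternatives were DESeq2 1.42.0, limma 3.58.1 on log2(TPM + 1) with a pseudocount of 1, edgeR with RLE, TMMwsp or library-size scaling, without robust estimation or with other count filters, a replicate block and leaving out each library. The scripts were tested on simulated data. Detection of changed genes was required there only at a spread far below that between these libraries. Fold changes of genes among the 10 are given where enough libraries compared (4, or 8 of 12) had over 3 reads or DESeq2 or edgeR called the gene, and of microdissected oocytes only where the groups did not overlap, a choice made after the values were seen. From the 8 lists of other pathway genes, those called and the highest in *in vivo* MII oocytes are named. Genes and lists were chosen with earlier results of these data known. The labels do not say that replicates came from separate animals, so p-values measure the spread between these libraries, and floors cover counting error only. Coordinates are from GENCODE release M21 on GRCm38.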

Additional observations from a re-analysis of the deposited data

How the results depend on the processing

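Among the 8 comparisons, the count of the 10 genes called stayed at 0 under every alternative except DESeq2. With its defaults DESeq2 called 1 between primordial oocytes *in vitro* and *in vivo* (*Adcy3*), and without its filters 2 there (*Adcy3* and *Pkia*) and 1 (*Pkia*) in each of the comparison of primary with primordial oocytes *in vitro*, the interaction, and stage pooled over growth. Leaving out each library gave 0 throughout. The labels do not say whether replicate numbers pair the samples. Deviations of same-numbered libraries correlated at -0.066 to 0.090 over 18 microdissected pairs and at -0.024 to 0.016 over 3 MII pairs. For libraries of different numbers the ranges were -0.078 to 0.090 and -0.038 to 0.029. Given 3 libraries per group and a wide spread between them, such values cannot exclude a pairing. With a replicate block 0 of the 10 genes were called, beside 85 genes in all in MII oocytes, 1 in primordial oocytes and 0 elsewhere.

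Over all genes, DESeq2 with its defaults called 812, 244, 337, 561, 454, 558, 583 and 664 genes (primordial, primary and MII growth, stage *in vivo* and *in vitro*, interaction, pooled growth and pooled stage) and without its filters 1779, 971, 321, 1492, 1278, 1590, 1640 and 1753, where edgeR called 5, 0, 60, 8, 0, 16, 0 and 0. With no count filter edgeR called 263 in MII oocytes, 1 for the interaction and 0 elsewhere. Limma called 49 in MII oocytes and 0 elsewhere, and filterByExpr 45 in MII oocytes, 1 for pooled growth and 0 elsewhere. For pooled growth and pooled stage, edgeR called 17 and 24 with RLE scaling, 7 and 0 with TMMwsp, 0 and 2 by library size alone and 19 and 22 without robust estimation. In primary oocytes it called 1 with RLE scaling and 4 without robust estimation. With only the 2 groups compared it called 9 in primordial oocytes, 5 in primary oocytes and 3 for stage *in vivo*.

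Of 64 pairs of gene and comparison with enough reads, 26 changed sign under at least 1 alternative. Folds of microdissected oocytes are given only where the groups did not overlap, which makes a change of sign unlikely. Their lack of sign changes is therefore no measure of stability. Among the 18 pairs whose fold is given, 3 changed sign, all in MII oocytes. These were *Gnas* (log2 fold change -0.063 by library size alone, and -0.28 to 0.43 when leaving out each library), *Pde3a* (-0.19 to 0.18) and *Prkar2b* (-0.53 to 0.13). *Prkaca* in MII oocytes ranged from -1.26 to -0.62 when leaving out each library, with adjusted p from 0.362 to 0.728, and from -1.02 to -0.92 otherwise, with adjusted p from 0.243 to 0.510. In microdissected oocytes scalings moved the median of all genes by up to 0.37 (log2). On the log2(TPM + 1) scale *Adcy2* and *Cap1* did not pass (adjusted p 0.0515 and 0.0786 by limma). The biological coefficient of variation was 2.02 in microdissected and 0.726 in MII libraries, and depth limits *Adcy3*, *Pkia* and *Npr2* in MII oocytes.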

Other observations

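*Prkg1*, a cyclic GMP-dependent kinase of the pathway lists, had the lowest adjusted p of the list genes in microdissected oocytes and was singled out after its values were seen. It had 636, 96 and 1 reads in primordial *in vivo* libraries, 0 in all 3 primordial *in vitro* libraries, 38799, 6147 and 1 in primary *in vivo* libraries and 1853, 1 and 0 in primary *in vitro* libraries. The adjusted p by edgeR was 0.0520 for growth pooled over stage and 0.0536 for stage pooled over growth, and it passed by edgeR with RLE scaling and without robust estimation in both, while over the alternatives it ran from 4.92e-10 to 0.778 and from 7.69e-11 to 0.762. Without primary *in vivo* library 1 it was 0.372 and 0.219 by edgeR. Each group with reads held a library with 0 or 1 read.

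The receptor, G protein and cyclase were also read together, a choice made after their values were seen. Over 3 reads of each of *Gpr3*, *Gnas* and *Adcy3* were present in 0 of 3 primordial *in vivo* libraries, 1 of 3 primordial *in vitro*, 1 of 3 primary *in vivo* and 3 of 3 primary *in vitro* libraries, and in all 6 MII libraries. No test was made of these counts.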
